A study of Rattus norvegicus with 48 samples.

Results

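The genes described here are Aqp2, Aqp4 and Slc14a2, which move water and urea across the collecting duct of the kidney. They were chosen by name, with earlier results of these data known. Each is measured by 1 probe set whose single gene symbol in the array annotation is the gene's own (probe sets 7320670, 7173449 and 7177483), which makes 3 of the 7603 probe sets with 1 symbol in a table of 8797. The kidneys came from male rats aged 12 weeks by the sample labels and 12 to 14 weeks by the protocol. The 4 strains are named F, L, FL and LF in the labels, which do not say what the letters stand for. In every strain 1 group was gavaged with indole-3-carbinol (100 mg/kg daily) for 7 days and 1 group for 10 days, and 1 group was gavaged with the vegetable oil carrier. The labels call the carrier group day 0. The protocol gives 8 rats to a group and the table holds 4 arrays of each of the 12 groups, and whether the RNA on an array came from 1 rat or from several is not stated. The p-values below therefore measure only the spread between these arrays.

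Collecting duct principal cells set the final volume and concentration of urine. Vasopressin binds its V2 receptor, Avpr2, on the basolateral side of these cells and raises cyclic AMP, which sends Aqp2 water channels to the apical membrane and raises Aqp2 transcription. Water that enters through Aqp2 leaves through the basolateral channels Aqp3 and Aqp4, while the UT-A urea transporters encoded by Slc14a2 let urea pass into the inner medulla and keep it concentrated there. Indole-3-carbinol comes from cabbage-family plants. Its products, formed in stomach acid, activate the aryl hydrocarbon receptor, and Cyp1a1 is the best known target of that receptor.

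All 3 genes matched the RefSeq promoter table of build GRCr8, with 1 window for Aqp2, 2 for Aqp4 and 2 for Slc14a2, each running from 250 bases before to 50 bases after an annotated start. The windows below are shown because all 3 genes were lower in treated kidneys in the mean of the strains. The motifs searched belong to the pathways that act in these cells. Capitals mark matches. The motifs were read on both strands. TGACG is the core of the cyclic AMP response element. The E-box searched was CACGTG. The site bound by GATA factors was written GATAAG. The core of the tonicity element, through which cells respond to salt, was written TGGAAA. The aryl hydrocarbon receptor binds the dioxin response element, whose core is GCGTG. No matches overlapped in these windows. The Aqp2 window lies on the plus strand at chr7:132590036-132590335, and the others lie on the minus strand. Those of Aqp4 and of the Slc14a2 start farthest upstream are at chr18:6798793-6799092 and chr18:74314497-74314796, and that of the internal Slc14a2 start is at chr18:73921535-73921834.
Aqp2: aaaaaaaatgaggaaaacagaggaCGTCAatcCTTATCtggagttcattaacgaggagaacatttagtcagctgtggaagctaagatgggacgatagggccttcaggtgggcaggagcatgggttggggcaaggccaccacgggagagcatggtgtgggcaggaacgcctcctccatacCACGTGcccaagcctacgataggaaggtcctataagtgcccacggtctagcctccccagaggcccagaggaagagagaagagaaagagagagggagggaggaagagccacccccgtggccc
Aqp4: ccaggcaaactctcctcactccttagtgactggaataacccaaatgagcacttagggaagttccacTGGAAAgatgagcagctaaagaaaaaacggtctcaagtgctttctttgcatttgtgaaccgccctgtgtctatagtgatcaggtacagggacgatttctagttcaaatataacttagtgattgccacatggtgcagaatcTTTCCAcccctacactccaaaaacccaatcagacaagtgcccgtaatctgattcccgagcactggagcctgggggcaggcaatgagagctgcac
Slc14a2: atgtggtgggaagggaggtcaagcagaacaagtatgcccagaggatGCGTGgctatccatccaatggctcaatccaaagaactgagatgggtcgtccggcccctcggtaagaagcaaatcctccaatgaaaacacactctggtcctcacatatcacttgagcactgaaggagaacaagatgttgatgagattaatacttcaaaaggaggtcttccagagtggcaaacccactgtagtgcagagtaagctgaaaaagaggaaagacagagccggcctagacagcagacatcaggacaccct
Slc14a2 internal start: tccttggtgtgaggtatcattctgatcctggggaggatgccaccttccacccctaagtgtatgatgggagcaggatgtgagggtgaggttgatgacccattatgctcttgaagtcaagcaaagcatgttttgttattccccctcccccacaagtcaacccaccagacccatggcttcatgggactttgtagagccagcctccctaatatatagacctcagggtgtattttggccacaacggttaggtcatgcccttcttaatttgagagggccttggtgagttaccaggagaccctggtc

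The Aqp2 window held the cyclic AMP element core as CGTCA at position -226, the GATA site as CTTATC at -218 and the E-box at -71, counted from the start with the position of the match's leftmost base. Across 33465 rat windows of 300 bases, the cyclic AMP element core was present in 21.2%, the GATA site in 7.05% and the E-box in 6.42%. The Aqp4 window held the tonicity core at -184 and, on the other strand, at -44, and the Aqp4 window at the other start, which is not printed, held it at -72. The tonicity core was present in 22.7% of all windows. The upstream Slc14a2 window held the dioxin element core at -204, a motif present in 29.7% of all windows, and the internal Slc14a2 window held none of the 5 motifs. A match is a string of letters in a window and does not show that a factor binds there.

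Aqp2, the vasopressin-regulated water channel of the apical membrane, was lower in treated kidneys on most arrays. The values are log2 array signals, so a difference of 1 is a doubling. In F kidneys Aqp2 measured 10.21, 10.19, 10.29 and 10.23 at day 0, 9.08, 9.48, 9.74 and 9.36 at day 7, and 9.20, 9.82, 9.38 and 9.32 at day 10. The carrier arrays of F lay within a range narrower than any other group's, and every treated F array lay below all of them. In L kidneys Aqp2 measured 10.14, 10.07, 10.24 and 9.87 at day 0, 9.63, 9.42, 9.70 and 9.91 at day 7, and 9.32, 9.53, 9.25 and 9.69 at day 10. The L groups overlapped at day 7, where replicate 4 lay above the lowest carrier array, and did not overlap at day 10. In FL kidneys Aqp2 measured 10.20, 9.92, 9.73 and 9.83 at day 0, 9.50, 9.56, 9.86 and 9.58 at day 7, and 9.92, 9.49, 9.35 and 9.40 at day 10. In FL the treated and carrier arrays overlapped at both days. In LF kidneys Aqp2 measured 10.10, 9.76, 9.87 and 9.84 at day 0, 8.95, 9.72, 9.26 and 9.42 at day 7, and 9.05, 9.30, 9.79 and 8.92 at day 10. The LF groups did not overlap at day 7, and at day 10 replicate 3 reached the carrier range.

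**Figure D1:**
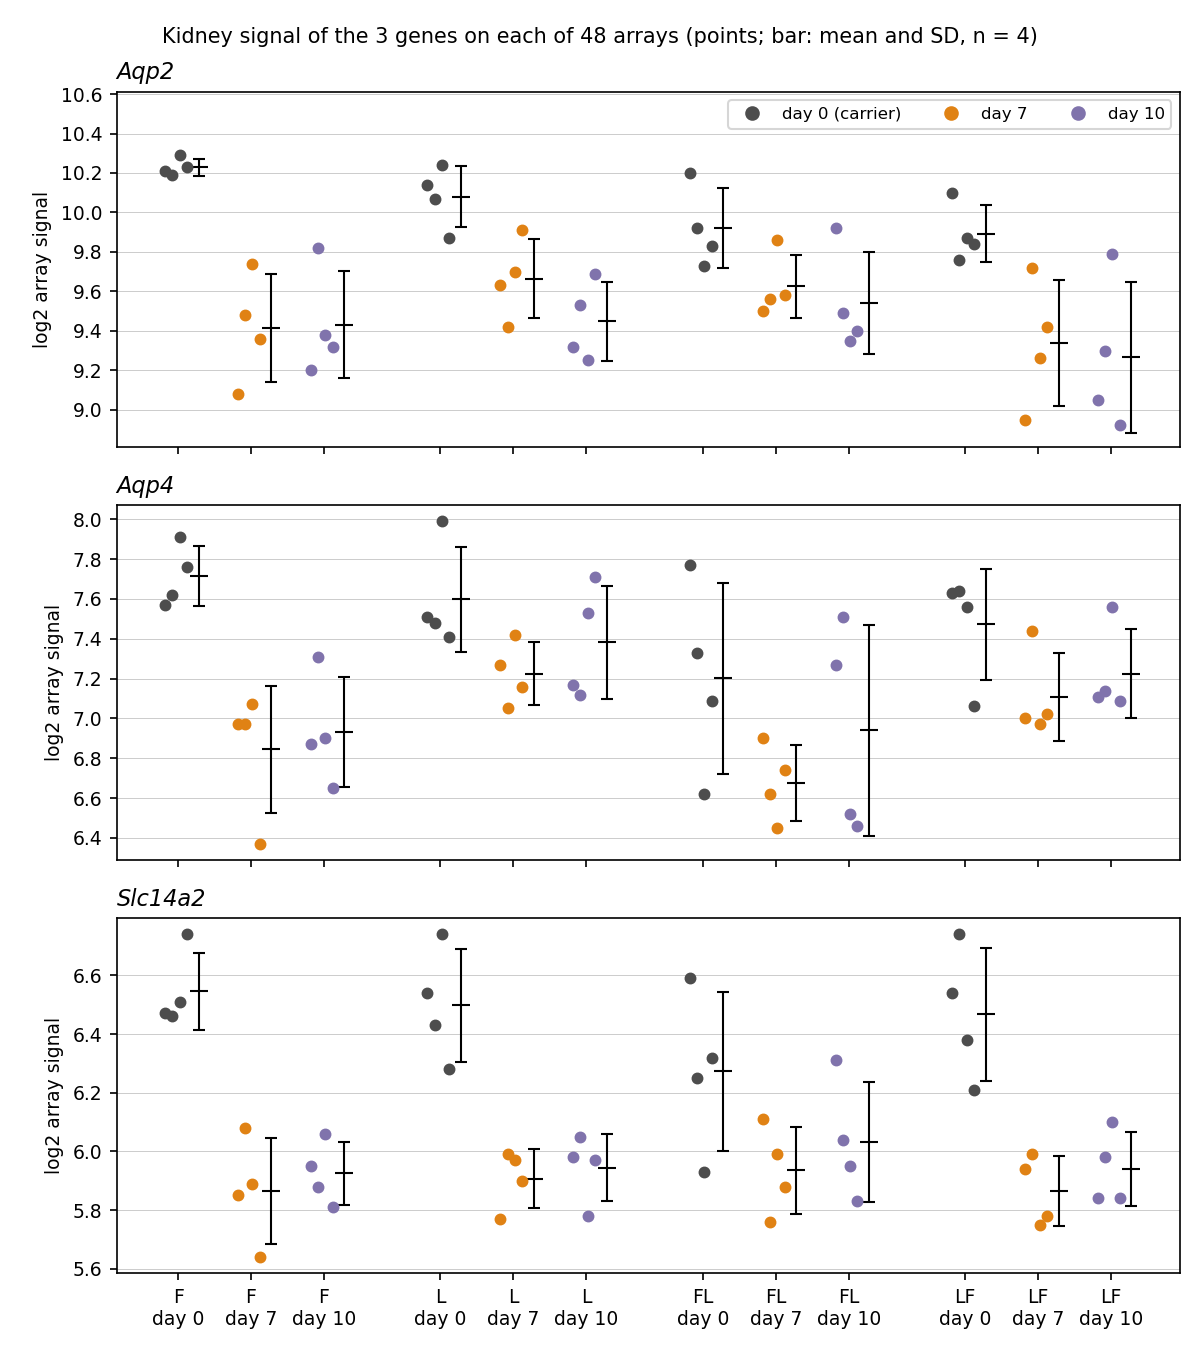
Each point is the log2 signal of 1 array, by strain and day, with the mean and SD of the 4 arrays of the group beside it. For Slc14a2 the treated groups of F, L and LF lie wholly below their carrier group, while in FL the groups overlap for all 3 genes.

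In the mean of the 4 strains, Aqp2 signal was 69.7% of carrier at day 7 (log2 difference -0.52 ± 0.0816, standard error, adjusted p = 5.4e-05) and 65.5% at day 10 (-0.61 ± 0.0816, adjusted p = 2.84e-06). These tests are limma's, with 1 mean per group over all 48 arrays and p-values adjusted over all 8797 probe sets, and a change is called where the adjusted p is under 0.05. Within strains, 3 of 8 changes of Aqp2 passed. F fell by 0.81 at day 7 (95% interval -1.15 to -0.48, adjusted p = 0.00574) and by 0.80 at day 10 (-1.13 to -0.47, adjusted p = 0.0136), and LF fell by 0.63 at day 10 (-0.96 to -0.30, adjusted p = 0.0483). The share of all probe sets called lower was 0.239% in F at day 7, 0.159% in F at day 10 and 0.296% in LF at day 10. The LF fall at day 7 was -0.55 (-0.89 to -0.22, adjusted p = 0.0586) and passed with the replicate number as a block (adjusted p = 0.0339). In L the differences were -0.42 (-0.75 to -0.08, adjusted p = 0.994) at day 7 and -0.63 (-0.96 to -0.30, adjusted p = 0.353) at day 10, and in FL they were -0.30 (-0.63 to 0.04, adjusted p = 0.812) and -0.38 (-0.71 to -0.05, adjusted p = 0.999). All 8 estimates were below 0. For each gene, both treated days of a strain are set against the same 4 carrier arrays, so the 8 comparisons are not independent. F day 0, the highest group for each of the 3 genes, enters the F differences at both days. Treated and carrier arrays of a strain did not overlap in 4 of 8 comparisons, against 2.76% of all probe sets lower without overlap in F at day 7, 3.19% in F at day 10, 0.898% in L at day 10 and 6.51% in LF at day 7. Across strains, 13 of 16 arrays at day 7 and 13 of 16 at day 10 lay below the lowest carrier array.

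The 2 called falls of Aqp2 at day 10 rest on few arrays. The F fall at day 10 was not called without F day 0 replicates 3 or 4 or F day 10 replicates 1, 3 or 4, each left out alone (adjusted p = 0.0511 to 0.0799). The LF fall at day 10 was not called in 30 of 48 such refits (adjusted p = 0.0505 to 0.305), among them those without any 1 of the 4 LF carrier arrays and those without LF day 10 replicates 1, 2 or 4. The others left out arrays of groups that do not enter the LF difference itself. On all arrays its adjusted p by limma was 0.0483, close to the threshold. The F fall at day 7 was called in all 48 single-array refits, and was not called in 3 of 4 refits without a replicate number (adjusted p = 0.07, 0.0608 and 0.1 without replicates 1, 2 and 4). Each day 10 fall also lost its call in 3 of 4 such refits (adjusted p = 0.083 to 0.232 in F and 0.19 to 0.48 in LF). The LF fall at day 7, not called on all arrays, was called in 5 of 48, without FL day 10 replicates 1 or 4, LF day 10 replicate 3, F day 10 replicate 2 or LF day 7 replicate 2 (adjusted p = 0.0302 to 0.0492).

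Aqp4, the basolateral water channel that is also the main aquaporin of brain astrocytes, was lower at day 7 and varied more between arrays of a group. In F kidneys it measured 7.57, 7.62, 7.91 and 7.76 at day 0, 6.97, 6.97, 7.07 and 6.37 at day 7, and 6.87, 7.31, 6.90 and 6.65 at day 10. F was the strain in which the treated arrays lay below all carrier arrays at both days, and in the other 3 strains treated and carrier arrays overlapped. In L kidneys Aqp4 measured 7.51, 7.48, 7.99 and 7.41 at day 0, 7.27, 7.05, 7.42 and 7.16 at day 7, and 7.17, 7.12, 7.53 and 7.71 at day 10. In L only day 7 replicate 3 entered the carrier range at day 7, and replicates 3 and 4 did so at day 10. In FL kidneys it measured 7.77, 7.33, 6.62 and 7.09 at day 0, 6.90, 6.62, 6.45 and 6.74 at day 7, and 7.27, 7.51, 6.52 and 6.46 at day 10. The FL carrier and day 10 arrays spread over more than 1 log2 unit. In LF kidneys Aqp4 measured 7.63, 7.64, 7.56 and 7.06 at day 0, 7.00, 7.44, 6.97 and 7.02 at day 7, and 7.11, 7.14, 7.56 and 7.09 at day 10. LF carrier replicate 4, the lowest of its group, lay among the day 7 arrays and below all day 10 arrays.

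In the mean of the strains Aqp4 signal was 69.1% of carrier at day 7 (-0.53 ± 0.104, adjusted p = 0.00121) and 77.0% at day 10 (-0.38 ± 0.104, adjusted p = 0.0377). The day 10 value is close to the threshold. It was not called when 18 of the 48 arrays were left out one at a time (-0.43 to -0.33, adjusted p = 0.0522 to 0.0865 where the call was lost). Those were FL day 0 replicates 1 and 2, LF day 0 replicates 1, 2 and 3, F day 0 replicates 3 and 4, L day 0 replicate 3, FL day 10 replicates 3 and 4, LF day 10 replicates 1, 2 and 4, F day 10 replicates 1, 3 and 4, and L day 10 replicates 1 and 2. The F fall at day 7, of 0.87 (-1.29 to -0.45, adjusted p = 0.0277), was the 1 within-strain change of Aqp4 out of 8 that passed, and it was not called without F day 0 replicates 2, 3 or 4 or F day 7 replicates 1 or 4 (adjusted p = 0.0503 to 0.205). Nor was it called in any of the 4 refits without a replicate number (adjusted p = 0.105 to 0.36). At day 10 the F difference was -0.78 (-1.20 to -0.36, adjusted p = 0.113). The other strains gave -0.37 in L, -0.53 in FL and -0.36 in LF at day 7, and -0.21 in L, -0.26 in FL and -0.25 in LF at day 10, with intervals that reached from -0.95 to 0.21. Over all strains, 2 of 16 arrays at each treated day lay below the lowest carrier array, which was FL day 0 replicate 3 at 6.62.

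Slc14a2, which encodes the UT-A urea transporters, had the smallest spread between arrays of a group among the 3 genes (pooled SD 0.17, against 0.23 for Aqp2 and 0.30 for Aqp4). In F kidneys it measured 6.47, 6.46, 6.51 and 6.74 at day 0, 5.85, 6.08, 5.89 and 5.64 at day 7, and 5.95, 5.88, 6.06 and 5.81 at day 10. In L kidneys it measured 6.54, 6.43, 6.74 and 6.28 at day 0, 5.77, 5.99, 5.97 and 5.90 at day 7, and 5.98, 6.05, 5.78 and 5.97 at day 10. In both strains every treated array lay below every carrier array. In FL kidneys Slc14a2 measured 6.59, 6.25, 5.93 and 6.32 at day 0, 6.11, 5.76, 5.99 and 5.88 at day 7, and 6.31, 6.04, 5.95 and 5.83 at day 10. The low FL carrier array, replicate 3, had values within the treated range, and it was also the lowest FL carrier array for Aqp2 and Aqp4. In LF kidneys Slc14a2 measured 6.54, 6.74, 6.38 and 6.21 at day 0, 5.94, 5.99, 5.75 and 5.78 at day 7, and 5.84, 5.98, 6.10 and 5.84 at day 10, again with no overlap between treated and carrier arrays.

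In the mean of the strains Slc14a2 signal was 68.2% of carrier at day 7 (-0.55 ± 0.0602, adjusted p = 6.97e-08) and 71.4% at day 10 (-0.48 ± 0.0602, adjusted p = 9e-07). All 3 genes were called lower at both days, where 3.75% of all probe sets were called lower and 1.19% higher at day 7, and 1.15% lower and 1.26% higher at day 10. Since the 3 were chosen with earlier results of these data known, these shares are a description and no test of the 3 as a set. The 435 calls at day 7 split into 105 higher and 330 lower. Subtracting array medians gave 256 higher and 310 lower, and a further quantile normalization 267 and 367, with all 3 genes called lower in each. Within strains, 4 of 8 changes of Slc14a2 passed. F fell by 0.68 (-0.92 to -0.44, adjusted p = 0.0015) and LF by 0.60 (-0.85 to -0.36, adjusted p = 0.00285) at day 7, where 1.88% of all probe sets were called lower in LF. At day 10 F fell by 0.62 (-0.86 to -0.38, adjusted p = 0.00953) and LF by 0.53 (-0.77 to -0.28, adjusted p = 0.0144). At day 10 the F call was lost without F day 0 or F day 10 replicate 4 (adjusted p = 0.0844 and 0.0615). The LF call was lost without LF day 0 replicates 1 or 2 or LF day 10 replicates 1 or 4 (adjusted p = 0.0689 to 0.122). Both day 7 calls held in all 48 single-array refits. They were lost without replicate number 4 in F (adjusted p = 0.1) and without number 2 in LF (adjusted p = 0.137). At day 10 each call was lost in 2 of 4 such refits (adjusted p = 0.0814 and 0.232 in F, 0.226 and 0.345 in LF).

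The L differences of Slc14a2 did not pass, in a strain where 0.0114% of all probe sets were called lower at day 7 and the same share at day 10. The differences were -0.59 (-0.83 to -0.35, adjusted p = 0.0736) at day 7 and -0.55 (-0.80 to -0.31, adjusted p = 0.131) at day 10, with unadjusted p = 1.67e-05 and 4.46e-05. The day 7 difference passed with the replicate number as a block (adjusted p = 0.0484) and without any 1 of FL day 0 replicates 1 or 3, LF day 0 replicate 2, L day 0 replicate 4 or FL day 10 replicate 1 (adjusted p = 0.0296 to 0.0471). With array medians subtracted, both L differences passed (adjusted p = 0.0198 and 0.00735). The LF response differed from the L response by -0.01 (-0.36 to 0.33) at day 7 and by 0.03 (-0.32 to 0.37) at day 10. In FL the differences were -0.34 (-0.58 to -0.09, adjusted p = 0.527) and -0.24 (-0.48 to 0.00, adjusted p = 0.999), where 0.136% of all probe sets were called lower at day 7 and 0.0455% at day 10. Treated and carrier arrays of Slc14a2 did not overlap in 6 of 8 comparisons, including L at day 7, where 1.03% of all probe sets were lower without overlap, and LF at day 10, where 2.5% were. In FL, where all 3 genes overlapped, the shares were 1.96% at day 7 and 0.637% at day 10. Across strains, Slc14a2 at day 7 ranged from 5.64 to 6.11, against 5.93 to 6.74 in carrier kidneys, and 15 of 16 carrier arrays lay above the highest day 7 array. At day 10 its highest array was 6.31, and 12 of 16 carrier arrays lay above it.

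**Figure D2:**
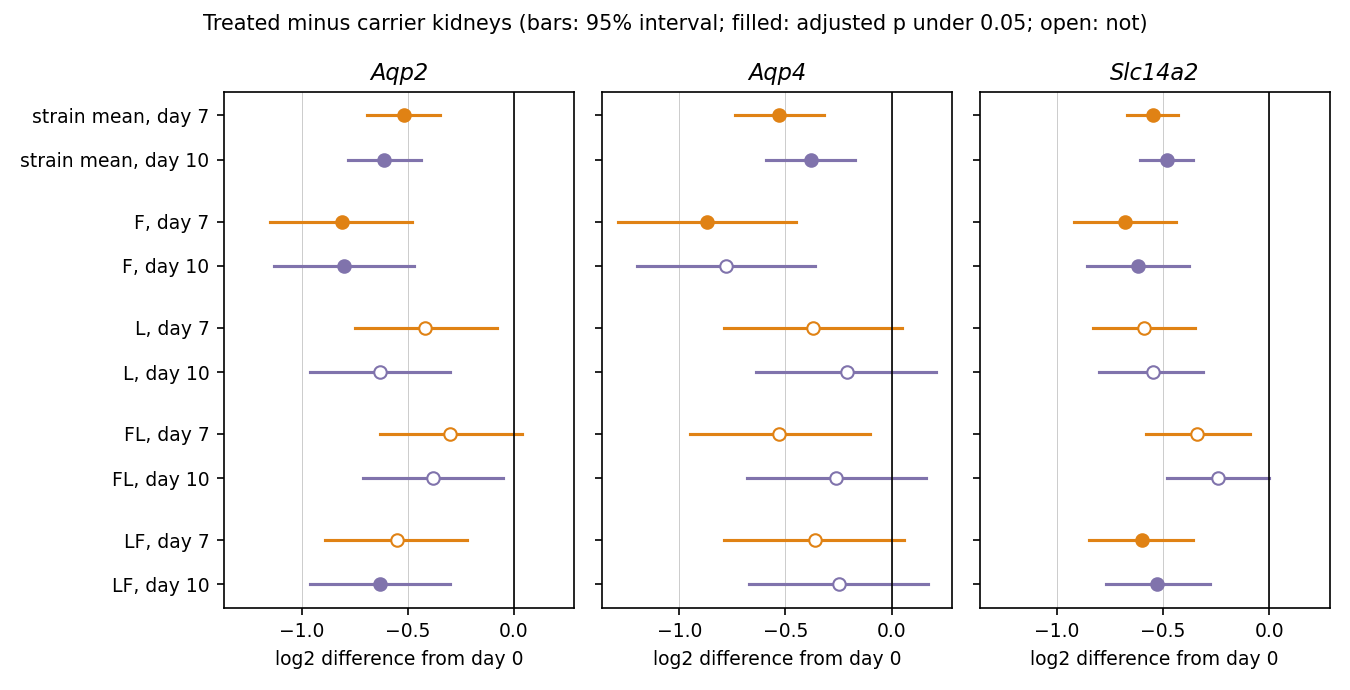
Each point is the log2 difference of a treated day from day 0 for 1 gene, in the mean of the 4 strains or in 1 strain, with its 95% interval; filled points have an adjusted p under 0.05. All estimates lie below 0, and those of the strain means at day 7 are -0.52, -0.53 and -0.55.

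Whole kidney RNA was measured, so fewer collecting duct cells and less of these transcripts per cell cannot be told apart. No further change was called between the treated days. In the mean of the strains day 10 differed from day 7 by -0.09 (95% interval -0.26 to 0.08) for Aqp2, 0.16 (-0.05 to 0.37) for Aqp4 and 0.07 (-0.05 to 0.19) for Slc14a2. By limma 0 of the 3 differences passed and 0 had an unadjusted p under 0.05, and among all probe sets 0.0909% were called higher and 0.0227% lower. The intervals leave room for a further fall of Aqp2 by 0.26 and for a partial return of Aqp4 by 0.37.

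Whether the strains responded differently was tested with 1 F test per gene over the 8 within-strain responses. The F statistics were 1.11 for Aqp2, 1.04 for Aqp4 and 1.17 for Slc14a2 (adjusted p = 0.947 for each), and 0.193% of all probe sets passed this test. Of 36 differences in response between strain pairs, 0 passed by limma, where 0.0284% of all such differences over the table passed, and 2 had an unadjusted p under 0.05, both with a smaller fall in FL than in F. These were Aqp2 at day 7, with a difference of 0.52 (95% interval 0.05 to 0.99, adjusted p = 0.996), and Slc14a2 at day 10, with 0.38 (0.04 to 0.72, adjusted p = 0.957). For Aqp4 the FL fall differed from the F fall by 0.34 (-0.25 to 0.94) at day 7 and by 0.52 (-0.07 to 1.11) at day 10. The intervals of the 36 differences reached from -1.16 to 1.13, so 4 arrays per group do not exclude sizeable differences in response.

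Without the compound, no difference in level between strains was called. The F test over the 4 carrier groups gave 1.84 for Aqp2 (adjusted p = 0.678), 2.23 for Aqp4 (adjusted p = 0.567) and 1.98 for Slc14a2 (adjusted p = 0.644), where 3.43% of all probe sets passed. Of 54 differences in level between strain pairs at 1 day, 0 passed by limma, where 1.7% of all such differences over the table passed, and 7 had an unadjusted p under 0.05, of which 5 were in Aqp4. The largest of those was FL against L at day 7, where Aqp4 averaged 6.68 in FL and 7.22 in L, a difference of -0.55 (95% interval -0.97 to -0.13, adjusted p = 0.238). The strain means of Slc14a2 spanned 0.27 log2 units at day 0, 0.07 at day 7 and 0.11 at day 10. Those of Aqp2 spanned 0.34, 0.33 and 0.27, and those of Aqp4 spanned 0.51, 0.55 and 0.45. The change in these spans was not tested.

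Ordered by level, the 4 carrier groups came before all 8 treated groups for Aqp2 and Slc14a2. For Aqp2 the order ran from F day 0 (10.23 ± 0.04, SD, n = 4) through L day 0 (10.08 ± 0.16), FL day 0 (9.92 ± 0.20) and LF day 0 (9.89 ± 0.15) to L day 7 (9.66 ± 0.20), and ended with LF day 10 (9.27 ± 0.38). The step from LF day 0 to L day 7, of 0.23, was larger than either group's SD, and no other step between neighbours was. For Slc14a2 the carrier groups averaged 6.54 ± 0.13 in F, 6.50 ± 0.19 in L, 6.47 ± 0.23 in LF and 6.27 ± 0.27 in FL, followed by FL day 10 at 6.03 ± 0.20 and ending with LF day 7 at 5.87 ± 0.12. Its 2 widest steps, of 0.20 and 0.24 on each side of FL day 0, did not exceed the SDs of both groups they separate. For Aqp4 F day 0 was highest at 7.71 ± 0.15 and FL day 7 lowest at 6.68 ± 0.19, and FL day 0 ranked 7 of 12 at 7.20 ± 0.48, below L day 10, L day 7 and LF day 10. Every step between neighbours for Aqp4 was within the pooled SD of 0.30.

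Of the other aquaporin and urea transporter genes, 0 of 9 measured were called at day 7, and at day 10 0 were called higher and 1 lower. With the replicate number as a block 1 was called higher at day 7, and with array medians subtracted 2 were called lower at day 10. The list's median difference was -0.03 at day 7 and -0.0669 at day 10, where the median of all probe sets was -0.0287 and -0.00312. The gene called was Slc14a1, which encodes the UT-B urea transporter of descending vasa recta and red cells and is the chromosomal neighbour of Slc14a2. It differed by -0.26 ± 0.0675 at day 10 (adjusted p = 0.0215), and by -0.17 ± 0.0675 at day 7 (adjusted p = 0.134). Aqp3, which shares the basolateral membrane with Aqp4, differed by -0.18 ± 0.066 at day 7 (adjusted p = 0.0979) and by -0.22 ± 0.066 at day 10 (adjusted p = 0.0646). Aqp5 and Aqp6, which lie next to Aqp2 on chromosome 7, differed by 0.16 (adjusted p = 0.275) and -0.08 (adjusted p = 0.42) at day 7, and by -0.15 (adjusted p = 0.683) and -0.07 (adjusted p = 0.874) at day 10. Aqp9, a glycerol channel, differed by 0.18 at day 7 (adjusted p = 0.0829) and Aqp8 by -0.12 at day 10 (adjusted p = 0.70). No difference between these genes and the 3 was tested.

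Of the vasopressin signalling and Aqp2 trafficking list, 0 of 25 measured genes were called higher and 6 lower at day 7, with a median of -0.131, and 0 and 2 at day 10, with a median of -0.0556. With array medians subtracted the counts lower were 4 at day 7 and 5 at day 10, and with the replicate number as a block they were 7 and 4. These settings also moved the calls over all 8797 probe sets, which bears on every list. Without them 330 were called lower at day 7 and 101 at day 10. Subtracting medians gave 310 and 177 lower, with 256 and 180 higher. The block gave 787 and 136 lower, with 189 and 161 higher. The receptor Avpr2 was called lower at day 7 (-0.36 ± 0.0961, adjusted p = 0.0227) and was not called at day 10 (-0.32 ± 0.0961, adjusted p = 0.0634). In F, Avpr2 measured 7.53, 7.20, 6.99 and 7.14 at day 0, 6.81, 6.92, 6.61 and 6.55 at day 7, and 6.49, 6.80, 6.56 and 6.40 at day 10, with every treated array below every carrier array, but neither F difference was called (adjusted p = 0.47 at day 7 and 0.176 at day 10). In L, Avpr2 differed by -0.17 at day 7 and -0.12 at day 10, with overlapping arrays, and no within-strain difference of Avpr2 was called in any of the 4 strains. Adenylyl cyclases make the cyclic AMP of this pathway, and of these Adcy3 (-0.22, adjusted p = 0.00235) and Adcy5 (-0.13, adjusted p = 0.0147) fell at day 7. Adcy6 had a higher carrier mean (8.02, against 5.41 for Adcy3 and 6.15 for Adcy5). It was not called at either day (0.02, adjusted p = 0.842 at day 7, and 0.02, adjusted p = 0.995 at day 10). Pde3b, a phosphodiesterase that breaks cyclic nucleotides down, fell by 0.43 at day 7 (adjusted p = 0.00726). Casr, the calcium-sensing receptor, fell by 0.25 at day 7 (adjusted p = 0.0193) and by 0.26 at day 10 (adjusted p = 0.0177), and Adcy5 fell by 0.13 at day 10 (adjusted p = 0.0302).

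Of the osmotic response list, 2 of 5 measured genes were called lower and 0 higher at both days, with medians of -0.0756 and -0.08. They were Akr1b1, the aldose reductase that makes the osmolyte sorbitol, which fell by 0.36 ± 0.0904 at day 7 (adjusted p = 0.0115) and by 0.43 ± 0.0904 at day 10 (adjusted p = 0.00377), and the taurine transporter Slc6a6, which fell by 0.23 at day 7 (adjusted p = 0.0278) and at day 10 (adjusted p = 0.0487). Sgk1, a kinase induced by aldosterone and by tonicity, differed by 0.45 at day 10 (adjusted p = 0.064). With array medians subtracted 1 gene of the list was called higher at day 10.

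Of the list chosen as other principal cell markers, 0 of 13 measured genes were called higher and 4 lower at day 7, with a median of -0.108, and 1 higher and 2 lower at day 10, with a median of -0.0975. The mineralocorticoid receptor Nr3c2 fell by 0.31 (adjusted p = 0.00495), the sodium channel subunits Scnn1g by 0.35 (adjusted p = 0.00501) and Scnn1b by 0.32 (adjusted p = 0.0331), and the sodium pump regulator Fxyd4 by 0.36 (adjusted p = 0.00638) at day 7. At day 10 Scnn1g fell by 0.30 (adjusted p = 0.0308) and Fxyd4 by 0.32 (adjusted p = 0.022), and the alpha subunit of the channel, Scnn1a, rose by 0.32 (adjusted p = 0.0169). The summed signal of the list ranged from 12.83 to 13.14 at day 0, from 12.81 to 13.10 at day 7 and from 12.77 to 13.14 at day 10, on a log2 scale over 16 arrays each. Such sums are of unlogged signals, so the brightest genes of a list weigh most. Here those were Atp1b1 and Cdh16, with day 0 means of 11.96 and 11.01, and the next had 8.99. Atp1b1 differed by 0.02 at day 7 and 0.05 at day 10, and Cdh16 by -0.11 and -0.07, and none of these was called. The sum therefore does not measure the number of principal cells. Of the markers of intercalated cells, the acid and base transporting cells of the same duct, 0 of 11 were called at either day, with medians of 0.0887 and 0.0694. With array medians subtracted 4 were called higher at day 7 and 1 at day 10, and with the replicate number as a block 1 and 2 were. The summed signal of that list ranged from 11.76 to 12.22 at day 0, from 11.76 to 12.28 at day 7 and from 11.66 to 12.33 at day 10. The part of collecting duct cell number in the falls of the 3 genes was not tested.

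Markers of other nephron segments and of injury are given for the same kidneys. Of all probe sets 3.75% were called lower and 1.19% higher at day 7, and 1.15% lower and 1.26% higher at day 10. Of the loop and distal convoluted tubule markers 7 of 15 were called lower at day 7 and 4 at day 10, with medians of -0.172 and -0.129, and 8 were called lower at day 10 with array medians subtracted. The summed signal of that list ranged from 14.09 to 14.44 at day 0, from 13.88 to 14.24 at day 7 and from 13.84 to 14.33 at day 10. Calb1 and Slc8a1, which carry calcium through distal cells, fell by 0.89 and 0.90 at day 7 (adjusted p = 6.17e-06 and 1.92e-05). Of 16 proximal tubule markers 0 were called higher and 2 lower at day 7, and 0 at day 10. The day 7 direction depends on the scaling: with array medians subtracted 2 were called higher and 0 lower, and after a further quantile normalization 2 higher and 1 lower at each day. Of 16 tubular injury markers 9 were called higher at day 7, and 10 higher and 1 lower at day 10. Of 5 papilla and urothelium markers 0 were called lower at either day and 1, Cldn4, was called higher at day 10 (0.45, adjusted p = 0.0474). Of 5 podocyte and endothelial markers 3 were called lower at day 7 and 0 at day 10, and 3 were called lower at day 10 with array medians subtracted or after that further normalization. Of 9 markers of adrenal, adipose and blood cells 2 were called lower at day 7 and 0 at day 10, and with array medians subtracted 1 was called lower at each day. The list medians at day 7 and day 10 were -0.0678 and 0.00531 for proximal tubule and 0.295 and 0.483 for injury. They were 0.0613 and 0.0662 for papilla and urothelium, and -0.178 and -0.122 for podocyte and endothelial markers. For adrenal, adipose and blood cells they were -0.095 and -0.0338, and for all probe sets -0.0287 and -0.00312.

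**Figure D3:**
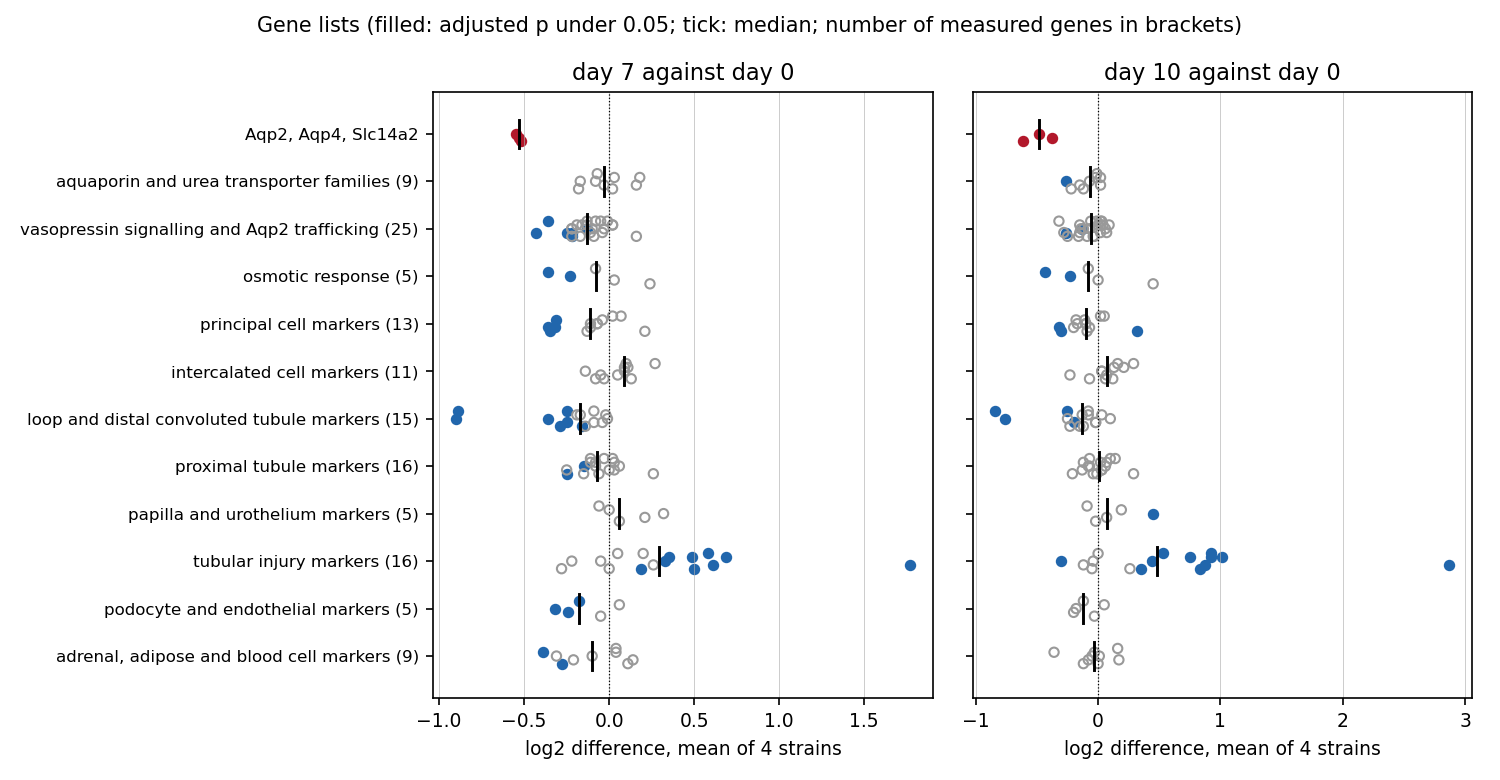
Each point is the log2 difference of 1 gene from day 0 in the mean of the 4 strains, by list, at day 7 and at day 10; filled points have an adjusted p under 0.05 and the tick is the list's median. Aqp2, Aqp4 and Slc14a2 lie between -0.55 and -0.52 at day 7, where single genes of the other duct lists reach -0.43 (Pde3b) and -0.36 (Avpr2, Fxyd4 and Akr1b1). Slc8a1 (-0.90) and Calb1 (-0.89), markers of distal segments, lie further below 0 at that day. At day 10 Aqp2 lies at -0.61, Slc14a2 at -0.48 and Aqp4 at -0.38, and Akr1b1, at -0.43, lies below Aqp4.

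The injury marker Havcr1 and the aryl hydrocarbon receptor target Cyp1a1 are given beside the 3 genes because they vary in size between strains. In L kidneys at day 7 Havcr1 measured 3.48, 4.23, 4.17 and 3.91, against 3.76, 3.82, 4.32 and 3.74 in L carrier kidneys, a difference of 0.04 (adjusted p = 0.996). In the same kidneys all 4 Slc14a2 values lay below all 4 carrier values (-0.59), while the Aqp2 (-0.42) and Aqp4 (-0.37) values overlapped those of the carrier group, and none of the 3 differences was called. In LF kidneys at day 10 Havcr1 was higher by 4.52 (adjusted p = 6.64e-07), where Aqp2 differed by -0.63, Aqp4 by -0.25 and Slc14a2 by -0.53. In L kidneys at day 10 Havcr1 differed by 1.67 (adjusted p = 0.964), where Aqp2 differed by -0.63, Aqp4 by -0.21 and Slc14a2 by -0.55. At day 7 Havcr1 rose by 3.18 in F (adjusted p = 0.00128) and 2.96 in LF (adjusted p = 0.000981). In FL at day 7 it differed by 0.90 (adjusted p = 0.812), with -0.30 for Aqp2, -0.53 for Aqp4 and -0.34 for Slc14a2. In F at day 10 it rose by 3.07 (adjusted p = 0.00252), with -0.80, -0.78 and -0.62 for the same genes. In FL at day 10 it differed by 2.23 (adjusted p = 0.119). Cyp1a1 rose by 2.73 in F at day 7 (adjusted p = 0.000856), and differed by 1.41 in L (adjusted p = 0.681), 0.68 in FL (adjusted p = 0.816) and 0.51 in LF (adjusted p = 0.539). In F and LF, the strains with the largest and the smallest Cyp1a1 difference, the day 7 differences were -0.81 and -0.55 for Aqp2, -0.87 and -0.36 for Aqp4, and -0.68 and -0.60 for Slc14a2. At day 10 Cyp1a1 rose by 2.97 in F (adjusted p = 0.00015) and 2.01 in FL (adjusted p = 0.0415). It differed by 1.45 in L (adjusted p = 0.694) and 0.52 in LF (adjusted p = 0.999). In FL at day 10 Aqp2 differed by -0.38, Aqp4 by -0.26 and Slc14a2 by -0.24, and none was called. No relation between these genes and the 3 was tested across strains.

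Across the 48 arrays the 3 genes were positively correlated. Pearson's r was 0.78 between Aqp2 and Slc14a2, 0.71 between Aqp4 and Slc14a2 and 0.61 between Aqp2 and Aqp4. Over the 12 group means the values were 0.92, 0.77 and 0.66, and after subtracting each group's mean they were 0.42, 0.64 and 0.53. Arrays of 1 replicate number share a stem in their array names, and all values of an array share its overall quality, so these values are a description and carry no test. Ranked by r among the probe sets with 1 symbol, Slc14a2 was number 3 and Aqp4 number 35 for Aqp2. For Slc14a2, Aqp2 was number 5 and Aqp4 number 14. For Aqp4, Slc14a2 was number 49 and Aqp2 number 435, so many other genes followed Aqp4 at least as closely as Aqp2 did. Leaving the other 2 of the 3 out of the ranking, the genes most like Aqp2 over the arrays were Slc8a1 (r = 0.83), Igfbp5 (0.79), Grem1 (0.77), Mcoln3 (0.77) and Kl (0.76). On the same terms, those most like Slc14a2 were Cxcl12 (0.82), Grem1 (0.82), Calb1 (0.78), Igfbp5 (0.78) and Vcan (0.77). Those most like Aqp4, ranked likewise, were Avpr2 (0.85), Pde1a (0.84), Stk39 (0.82), Scnn1b (0.81) and Kcnj1 (0.81). Igfbp5 and Grem1 were thus in the lists of Aqp2 and Slc14a2, and the 5 genes of Aqp4 were in neither. Between Aqp4 and Avpr2 r was 0.94 over the 12 group means and 0.75 over the 48 arrays after subtracting each group's mean. That value pools all groups, and not every group followed it. In F at day 0 Avpr2 measured 7.53, 7.20, 6.99 and 7.14, where Aqp4 measured 7.57, 7.62, 7.91 and 7.76. Stk39, a kinase that acts on sodium chloride cotransporters, had r = 0.82 with Aqp4 and was not called at either day (-0.19, adjusted p = 0.0566, and -0.12, adjusted p = 0.545).

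**Figure D4:**
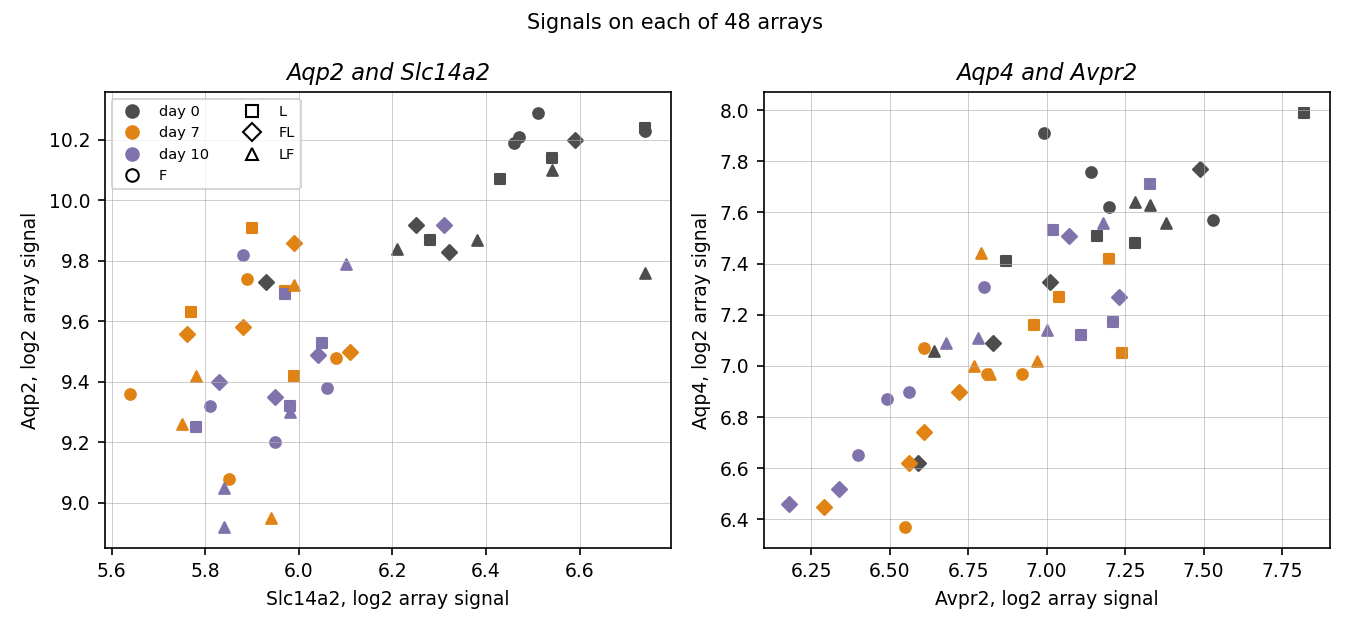
Each point is 1 of 48 arrays, coloured by day and shaped by strain, with log2 signals of Slc14a2 and Aqp2 on the left and of Avpr2 and Aqp4 on the right. On the left most carrier arrays lie at the upper right and most treated arrays at the lower left (r = 0.78). Exceptions there include FL day 0 replicate 3 (Slc14a2 5.93, Aqp2 9.73) and FL day 10 replicate 1 (6.31 and 9.92). On the right arrays of all days lie along 1 band (r = 0.85).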

How the data were processed

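The deposited table holds log2 signals for 48 kidney arrays, which the authors made with RMA (background correction, quantile normalization and summary into probe sets), going by the tools that the submitters' processing notes name without versions. The genome build is not given in the sources used here. Values ran from 1.04 to 14.02, array medians from 5.66 to 6.06 and the SD over probe sets of an array (array spread) from 2.29 to 2.54, with 0 missing values and 0 unmapped columns. The array spread averaged 2.45 ± 0.051 at day 0, 2.41 ± 0.0543 at day 7 and 2.45 ± 0.0692 at day 10 (SD, n = 16). The number of arrays limits the precision.

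Limma 3.58.1 in R 4.3.3 fitted the mean of each group to the 48 arrays, with residual degrees of freedom of 36 and a prior of 3.69, and p-values were adjusted over 8797 probe sets by Benjamini and Hochberg. The scripts were tested on simulated data. Probe sets were named from the platform annotation (7603 with 1 symbol, 409 with several, 785 with none). The 3 genes and the 11 gene lists were chosen with earlier results of these data known. Named genes are the 3 genes, up to 4 of each list with the smallest p at day 7 and at day 10, the 5 most correlated with each of the 3, chromosomal neighbours, Cyp1a1 and Havcr1. Adcy6, Atp1b1 and Cdh16 are named as well.

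The array names in the labels fall into 4 sets of 12 that share a stem, each holding 1 array of each group and 1 replicate number; what the stem marks is not stated. Deviations from group means correlated by 0.008 to 0.189 within these sets (mean 0.0942) and by -0.0314 on average between them. Alternatives were this number as a block, a further quantile normalization, subtracted medians, the array spread as a covariate, the 5 arrays of lowest spread left out, array weights, the dimmest 25% of probe sets left out, another variance model, single strains alone, and arrays or replicate numbers left out.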

Additional observations from a re-analysis of the deposited data

Results flagged for a closer look

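Of 36 groups of 4 arrays tested over the 3 genes, 4 held an array far from the other 3 by Dixon's test at its 95% level, all in Aqp4, where chance gives about 1 group in 20. In F at day 7, replicate 4 was lowest at 6.37, with a gap of 0.857 of the group's range. In LF at day 0, replicate 4 was lowest at 7.06 (0.862 of the range). In LF at day 7, replicate 2 was highest at 7.44, and in LF at day 10, replicate 3 was highest at 7.56 (0.894 of the range in both). F day 7 replicate 4 was also the lowest array of its group for Slc14a2, at 5.64, and LF day 10 replicate 3 the highest of its group for Aqp2, at 9.79, and Slc14a2, at 6.10. Without F day 7 replicate 4 the Aqp4 fall in F at day 7 was not called (adjusted p = 0.205).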

How the results depend on the processing

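The strain means, the strain by day tests and the strain tests at day 0 of the 3 genes were refitted 900 times in all. The direction and the side of the threshold were kept in 877 refits and none was reversed. The other 23 all concern the Aqp4 strain mean at day 10, which lost its call. It was -0.31 (adjusted p = 0.131) without the 5 arrays of lowest spread. With arrays or replicate numbers left out it ranged from -0.43 to -0.33 (adjusted p = 0.0111 to 0.296), and the call was lost in 18 of 48 single-array refits and in all 4 without a replicate number. With the replicate number as a block, which pairs arrays whose names share a stem, it was -0.38 (adjusted p = 0.0271), and the block changed no other call of the 3 genes than those given for Aqp2 in LF and Slc14a2 in L at day 7. It moved the count of all probe sets called in the strain mean at day 7 to 976, against 435 without it. Array weights gave 223 higher and 905 lower at day 7, the array spread as a covariate 268 and 225, and a further quantile normalization 267 and 367. At day 10 the counts were 111 higher and 101 lower without these changes, and a further quantile normalization gave 206 and 201. The cause of these shifts was not tested. With arrays left out the day 7 means ranged from -0.57 to -0.40 for Aqp2, from -0.58 to -0.49 for Aqp4 and from -0.58 to -0.53 for Slc14a2. Using the arrays of 1 strain alone, the day 10 falls in F of Aqp2 and Slc14a2 (both adjusted p = 0.0753) and in LF of Aqp2 (0.313) and Slc14a2 (0.0967) were not called. Without the 5 arrays of lowest spread, the day 10 falls in F of Aqp2 (0.103) and Slc14a2 (0.0729) and in LF of Aqp2 (0.0603) were not called. Aqp4 in F at day 10 was called with array medians subtracted (adjusted p = 0.0432), after a further quantile normalization (0.0367) and with array weights (0.0269). Of 7596 refits of the other 126 differences, 73 lost and 24 gained a call.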
